A study of Mus musculus with 8 samples.

Results

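Integrins, laminins and a small group of matrix proteins that they bind were examined in the whole uterus of control mice and of mice with Foxa2 deleted. The members were all gene symbols that begin with Itga, with Itgb and a digit, or with Lama, Lamb or Lamc and a digit, together with Spp1, Fn1, Tnc, Nid1, Nid2, Thbs1, Thbs2 and Fbln1. Of the 49 protein-coding mouse genes that this rule matches, 47 had a probe set with a single gene symbol, among 19938 genes tested. The others, Spp1 among them, were not analysed here. The 47 comprised 18 integrin alpha chains, 9 integrin beta chains, 10 laminin chains and 7 matrix ligands. They also held 3 genes that the pattern catches by name only, Itgb1bp1, Itgb1bp2 and Itgb3bp, whose products bind integrins or were named for it and are no receptor chains.

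RNA came from 8 females, 4 of genotype Pgr+/+ Foxa2+/+ (controls) and 4 of genotype PgrCre/+ Foxa2flox/flox (Foxa2-deleted), with each uterus on an array of its own. The deleted animals thus had Cre recombinase at 1 allele of Pgr, the progesterone receptor gene, beside their floxed Foxa2, so that Cre was made in Pgr-expressing cells of several uterine layers. The controls carried neither Cre nor floxed alleles, so the Pgr genotype, Cre and Foxa2 differed together and cannot be told apart. Mating with vasectomised males made every female pseudopregnant, and uteri were taken on day 3.5, counting the day of the plug as 0.5. Values are deposited log2 intensities, so a difference of 1 is a doubling, and no detection call came with them.

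Integrins are receptors built from an alpha and a beta chain that tie a cell to its matrix or to another cell, and the pairing sets which ligand is bound. Laminins are trimers of an alpha, a beta and a gamma chain. They form the sheet of every basement membrane, which the nidogens link to its collagen network. In the uterus a basement membrane underlies the luminal and glandular epithelium and surrounds muscle cells and vessels, and the receptor of the alpha v and beta 3 chains is a much studied marker of the time of implantation. FOXA2, a forkhead transcription factor, is made in the glands of the endometrium and is needed for them to form.

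Foxa2 itself lay between 8.61 and 8.82 in controls and between 8.2 and 8.22 in deleted uteri, so the arrays followed their labels (log2 change -0.52, SE 0.05, adjusted p = 0.0013, limma). The sources used here do not say which part of Foxa2 its probe set covers. Pgr rose by 0.37 (SE 0.10, adjusted p = 0.043), from between 11.15 and 11.27 to between 11.35 and 11.81. Array medians ran from 8.25 to 8.32, and precision is limited by there being 4 arrays a genotype. Controls were more alike than deleted uteri, with pairwise correlations over genes (no independent replicates) from 0.9961 to 0.9968 and from 0.9805 to 0.9900. Uterine markers were present in both genotypes, with the smooth muscle actin gene Acta2 at 13.12 ± 0.04 and 13.25 ± 0.09 and the uterine homeobox gene Hoxa10 at 10.91 ± 0.06 and 10.64 ± 0.29 (mean ± SD, n = 4, controls first). Whole tissue cannot tell fewer cells of a type from less RNA per cell. No member lay within 100 tested genes of Foxa2 or of Pgr in gene order, and the nearest were Thbs1, 287 genes from Foxa2, and Itga11, 577 genes from Pgr.

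Of the 47 members 13 (27.7%) differed between the genotypes, where 11.1% of all genes did (adjusted p under 0.05 by limma, with Benjamini-Hochberg adjustment over 19938 genes). The laminin chains Lamb3 and Lama3, the integrin chains Itga2, Itga3, Itga11, Itgb3 and Itgb5, and the matrix proteins tenascin C (Tnc) and fibronectin (Fn1) rose. These 9 members compare with 4.50% of all genes called higher. The integrin chains Itgax and Itgb8, the laminin chain Lamc3 and the integrin-binding protein gene Itgb1bp1 fell, 4 members where 6.58% of all genes were called lower. With a change of at least 1.5-fold required as well, 8 members were higher and 2 lower, where 1.76% and 1.51% of all genes were (3.28% together). Changes over the 47 members ran from -0.74 to 1.33 with a median of 0.06, against a median of 0.01 over all genes. Over all genes 898 were higher and 1311 lower, and 1082 and 982 when each array was centred on its median, a setting in which 10 members were higher and 4 lower.

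**Figure D1:**
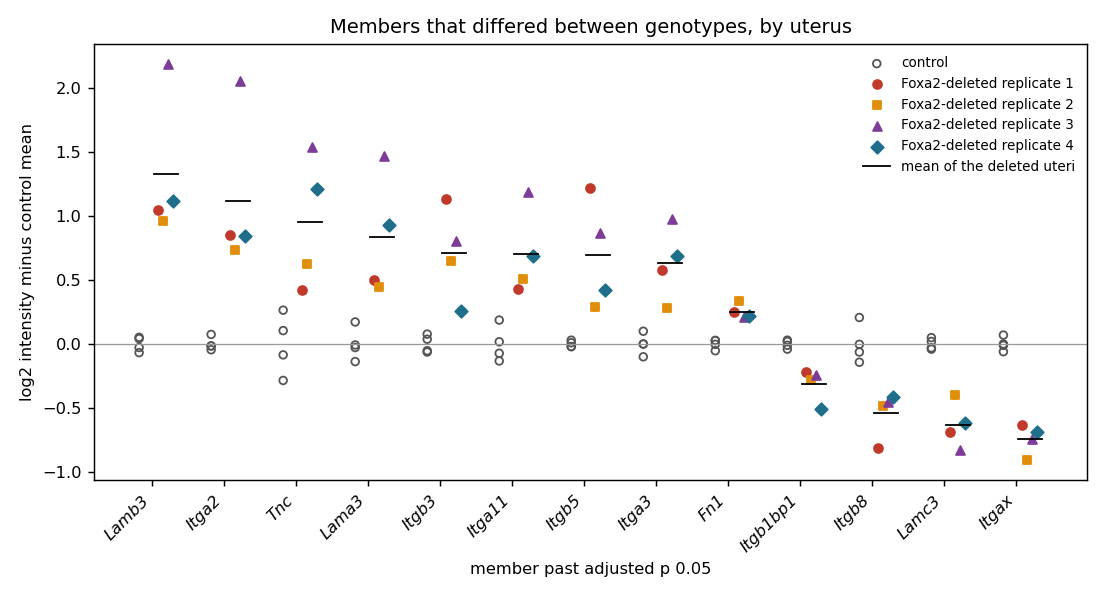
Log2 intensity of each uterus minus the control mean (vertical axis) for the 13 members past adjusted p 0.05, with controls as open circles, each Foxa2-deleted replicate under its own symbol, and a bar at the mean of the deleted uteri. Groups do not overlap in any of the 13, where 21.1% of all genes do not. The 13 were chosen by p on these same arrays, so their lack of overlap adds no support. Foxa2-deleted replicate 3 is farthest from the controls in 6 of the 9 that rose, and replicate 2 is nearest in 5.

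Deleted uteri spread more than controls. The SD was larger among deleted uteri in 37 of the 47 members (78.7%), and in 70.3% of all genes. Over the members the median SD was 0.067 in controls and 0.192 in deleted uteri, against 0.070 and 0.103 over all genes. Among the 9 members that rose, Foxa2-deleted replicate 3 lay farthest from the controls in 6 (66.7%), as in 51.2% of all genes called higher, and replicate 2 lay nearest in 5 (55.6%), as in 51.3%. The values of the 2 groups did not overlap in 22 of the 47 members, 13 with deleted uteri above and 9 below, where 21.1% of all genes did not overlap.

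The count of calls fell when any 1 control array was left out, whichever it was. Without control replicate 1, 2, 3 or 4 the members called higher numbered 3, 0, 0 and 1, and those called lower 3, 2, 3 and 2 (limma). In the same fits 5.57%, 2.79%, 3.10% and 2.79% of all genes were called, so calls fell over the whole table too. At an unadjusted p under 0.05 the members higher were 15, 14, 13 and 13 in these fits, against 14 with all arrays. Without Foxa2-deleted replicate 1, 2, 3 or 4 the members called higher were 7, 12, 10 and 9 and those called lower 4, 6, 5 and 4, where 5.36%, 14.8%, 9.37% and 15.3% of all genes were called. Without both Foxa2-deleted replicates 2 and 3, the nearest and the farthest, 10 were higher and 5 lower, where 11.9% of all genes were called. Itgax and Lamc3 were called in all 8 fits that left out 1 array, and no other member was.

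**Figure D2:**
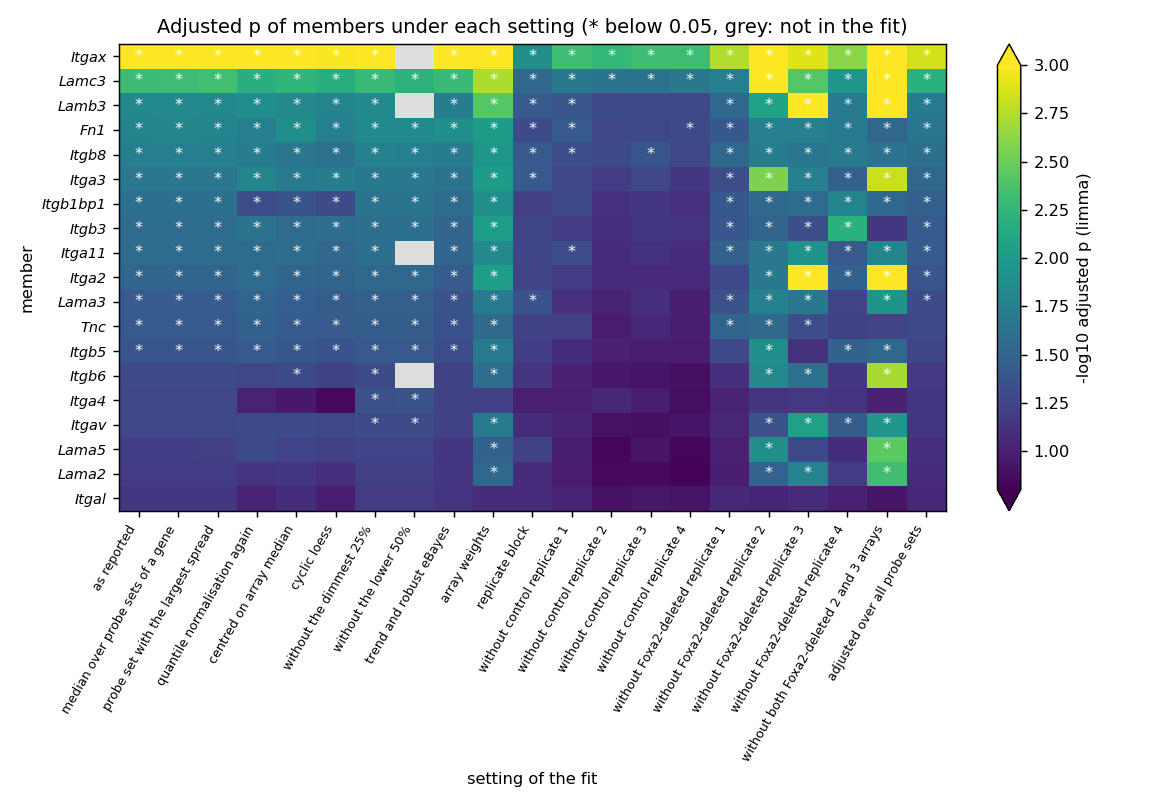
Adjusted p (limma, colour as -log10, stars below 0.05) of the 13 members called and of the 6 next in order, under each setting of the fit (columns). Itgax and Lamc3 keep their stars in every setting that holds them, while the columns without a control array hold few stars, with none among the members that rose without control replicate 2 or 3.

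Lamb3 had the largest rise among the 47 members. Lamb3 and Lama3 encode the beta 3 and alpha 3 chains, which belong to the laminin that anchors epithelium to the matrix beneath it. Lamb3 read 7.97, 7.96, 7.89 and 7.85 in controls 1 to 4 and 8.97, 8.88, 10.11 and 9.04 in deleted uteri 1 to 4. All 4 deleted uteri were above the controls, and replicate 3 was about 1 log2 unit above the other deleted uteri. The rise of Lamb3 was 2.52-fold (log2 change 1.33, SE 0.24, adjusted p = 0.015, limma). Leaving out control 2, 3 or 4 ended the call (adjusted p up to 0.0522).

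Lama3 read 9.10, 9.08, 9.28 and 8.97 in controls and 9.61, 9.55, 10.58 and 10.04 in deleted uteri. Its groups were apart and replicate 3 was again the highest. The rise was 1.79-fold (log2 change 0.84, SE 0.21, adjusted p = 0.037, limma), and leaving out any 1 control, or deleted uterus 4, ended the call (adjusted p up to 0.104). The integrin alpha 3 chain, encoded by Itga3, pairs with beta 1 as a receptor for laminins of epithelial basement membranes. Itga3 read 9.27, 9.27, 9.37 and 9.17 in controls and 9.85, 9.55, 10.25 and 9.96 in deleted uteri. The deleted uteri all lay above, and their order was that of Lama3, with replicate 2 lowest and replicate 3 highest. Itga3 rose by 0.63 (SE 0.13, adjusted p = 0.021, limma), and leaving out any 1 control ended the call (adjusted p up to 0.0703).

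The chains of the hemidesmosome receptor did not pass. Itgb4, the beta 4 chain that fastens epithelial laminin to keratin filaments, had a change of -0.03 with a 95% interval from -0.21 to 0.15. Its partner Itga6 had a change of 0.16 (interval -0.16 to 0.48). A change of 1.5-fold in either direction lies outside both intervals. Itga7, a laminin receptor chain of muscle, had a change of 0.02 (interval -0.16 to 0.21).

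Markers of epithelium were counted beside the epithelial laminin chains. Of 14 pan-epithelial markers measured, 5 rose and none fell, where 4.50% and 6.58% of all genes did. The keratin gene Krt19 was up by 1.86 (SE 0.22) and the epithelial transcription factor gene Elf3 by 1.77 (SE 0.25; adjusted p = 0.0034 and 0.0067, limma). The 9 that did not pass had changes from -0.11 (Cldn4) to 0.90 (Cldn7). The mean level of that list ran from 9.79 to 9.98 in controls and from 10.15 to 11.15 in deleted uteri, highest in replicate 3 and lowest in replicate 2. The part of these markers in the rise of Lamb3, Lama3 and Itga3 was not tested.

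Promoter letters were read for the members that lead the set. RefSeq windows on GRCm38.p6 matched 30 of the 47 members by symbol, 9 of the 13 called among them. The forkhead core letters TGTTTAC and TATTTAC, searched on both strands over the 250 bases before each annotated start, were in 0 of 35 member windows, against 3.17% and 2.73% of all 32851 windows. The AP-1 letters TGACTCA were in 1 member window, that of Itgax, where they stand on the other strand as TGAGTCA, against 4.46% of all windows. A window without these letters says nothing of whether a factor acts on the gene. The 150 bases before the start are shown for the members with the largest rises and the largest fall among those called and listed, in lower case with the AP-1 letters in capitals. They lie at chr1:193301844-193301993 (plus strand) for Lamb3, chr13:114932101-114932250 (minus strand) for Itga2 and chr7:128129400-128129549 (plus strand) for Itgax.
Lamb3: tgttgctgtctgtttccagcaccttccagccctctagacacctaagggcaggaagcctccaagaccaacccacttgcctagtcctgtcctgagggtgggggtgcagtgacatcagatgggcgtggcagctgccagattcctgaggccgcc
Itga2: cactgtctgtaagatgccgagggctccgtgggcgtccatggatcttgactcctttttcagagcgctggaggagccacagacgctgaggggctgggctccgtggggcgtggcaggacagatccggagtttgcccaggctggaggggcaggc
Itgax: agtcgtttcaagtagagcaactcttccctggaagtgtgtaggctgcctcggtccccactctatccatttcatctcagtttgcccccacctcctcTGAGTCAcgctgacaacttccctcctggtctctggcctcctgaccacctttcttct
G and C make up 64.7% of the Itga2 stretch and less of the others.

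Of the 4 alpha chains that bind collagen with beta 1, Itga2 and Itga11 rose, and Itga1 and Itga10 did not pass. Itga2, the collagen receptor chain of epithelium and platelets, read 9.53, 9.44, 9.41 and 9.44 in controls and 10.31, 10.19, 11.51 and 10.30 in deleted uteri. Replicates 1, 2 and 4 of the deleted uteri sat close together above the controls and replicate 3 stood far above them. The rise of Itga2 was 2.18-fold (log2 change 1.12, SE 0.26, adjusted p = 0.030, limma). Leaving out any 1 control, or deleted uterus 1, ended the call (adjusted p up to 0.0863), and without replicate 3 the change was 0.81 and still called.

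Itga11, a collagen receptor chain of fibroblasts, read 8.10, 7.84, 7.93 and 7.78 in controls and 8.34, 8.42, 9.10 and 8.60 in deleted uteri. The groups were apart, and replicate 3 was the highest. Itga11 rose by 0.70 (SE 0.16, adjusted p = 0.027, limma), and leaving out control 2, 3 or 4 ended the call (adjusted p up to 0.0838). Itga1, the collagen receptor chain of smooth muscle and stroma, had a change of -0.20 (interval -0.38 to -0.03, adjusted p = 0.104). Itga10 had a change of -0.01 (interval -0.13 to 0.12).

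Among the chains of receptors that bind the arginine-glycine-aspartate (RGD) sequence, 3 beta chains passed and 0 of 4 alpha chains did (limma), with Itgav at an unadjusted p of 0.0063. Over all genes 11.1% passed. Itgb3, the beta 3 chain of the alpha v receptor and of the platelet fibrinogen receptor, read 9.82, 9.81, 9.95 and 9.91 in controls and 11.01, 10.52, 10.68 and 10.13 in deleted uteri. Here replicate 1 was the highest and replicate 4 the lowest, and all were above the controls. Itgb3 rose by 0.71 (SE 0.16, adjusted p = 0.026, limma), and leaving out any 1 control (adjusted p up to 0.0803), or deleted uteri 2 and 3 together (0.0704), ended the call. Itgb5, whose product binds vitronectin with alpha v, read 10.64, 10.66, 10.61 and 10.61 in controls and 11.85, 10.92, 11.50 and 11.05 in deleted uteri. Its controls lay within 0.05 of each other and replicate 1 was again the highest. Itgb5 rose by 0.70 (SE 0.18, adjusted p = 0.041, limma), and leaving out any 1 control, or deleted uterus 1 or 3, ended the call (adjusted p up to 0.107), as did adjusting over all 35556 probe sets (0.0551).

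Itgav, the alpha v chain common to these receptors, read 10.60, 10.57, 10.55 and 10.63 in controls and 11.06, 10.94, 11.66 and 10.87 in deleted uteri. The groups did not overlap, but the change of 0.55 (SE 0.15, adjusted p = 0.0536, limma) did not pass. It was called without Foxa2-deleted replicate 2, 3 or 4, and its adjusted p rose to 0.129 on leaving out a control. Itgb6, the epithelial beta chain that activates latent TGF-beta with alpha v, had the largest change among the members that did not pass. It read 7.57, 7.71, 7.64 and 7.56 in controls and 8.19, 7.89, 9.10 and 8.42 in deleted uteri (log2 change 0.78, SE 0.22, adjusted p = 0.0519, limma). It was called without Foxa2-deleted replicate 2 or 3.

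Itgb8, another beta chain that activates latent TGF-beta with alpha v, went the other way. It read 10.61, 10.55, 10.47 and 10.82 in controls and 9.80, 10.13, 10.16 and 10.20 in deleted uteri, all of them below. Itgb8 fell by 0.54 (SE 0.10, adjusted p = 0.018, limma), a change of under 1.5-fold, and leaving out control 2 or 4 ended its call (adjusted p up to 0.0528). The remaining RGD-binding chains did not pass. They were the fibronectin receptor chain Itga5 (0.03, interval -0.26 to 0.32), Itga8 (0.16, interval -0.22 to 0.54) and the platelet chain Itga2b (0.02, interval -0.11 to 0.14). Platelet markers were counted beside Itgb3 and Itga2b, with 0 of 6 past the threshold and the mean of the list from 7.43 to 7.61 in controls and from 7.57 to 7.77 in deleted uteri. The smallest unadjusted p among them was 0.0069, for the platelet receptor gene Treml1.

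Itgb1, the most widely shared beta chain, read between 11.34 and 11.41 in controls and between 11.28 and 11.54 in deleted uteri. Its change was 0.06 with an interval from -0.09 to 0.21. Of the 24 integrin receptors of mammals formed by these chains, 8 had a chain past the threshold, 16 had none and 0 had both. Over all single genes 11.1% passed. No share was computed for pairs of other genes, so these counts say nothing particular to integrins. The count of 0 depended on Itgav, at adjusted p = 0.0536 (limma). Without Foxa2-deleted replicate 2, or without replicate 4, Itgav was called together with Itgb3, Itgb5 and Itgb8. The change of the alpha chain was set against that of its beta chain within each array and tested by a two-sided exact permutation test over all 70 arrangements of 4 and 4 arrays. The exact p reached 0.029, the smallest possible, for 10 of the 24 receptors, and none passed after adjustment over the 24 (adjusted p = 0.069 for these 10). With this floor a single receptor could not pass that adjustment however large its difference, so the adjusted result decides nothing. Many of the receptors share a chain, so the 10 are not independent results. The change of Itga2 exceeded that of Itgb1 by 1.07 (SE 0.28), and the change of Itgav that of Itgb8 by 1.08 (SE 0.20). Both were at this smallest p. Itgav and Itgb3 differed in change by -0.17 (SE 0.21, exact p = 0.54), and Itgav and Itgb5 by -0.16 (SE 0.21, exact p = 0.71).

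**Figure D3:**
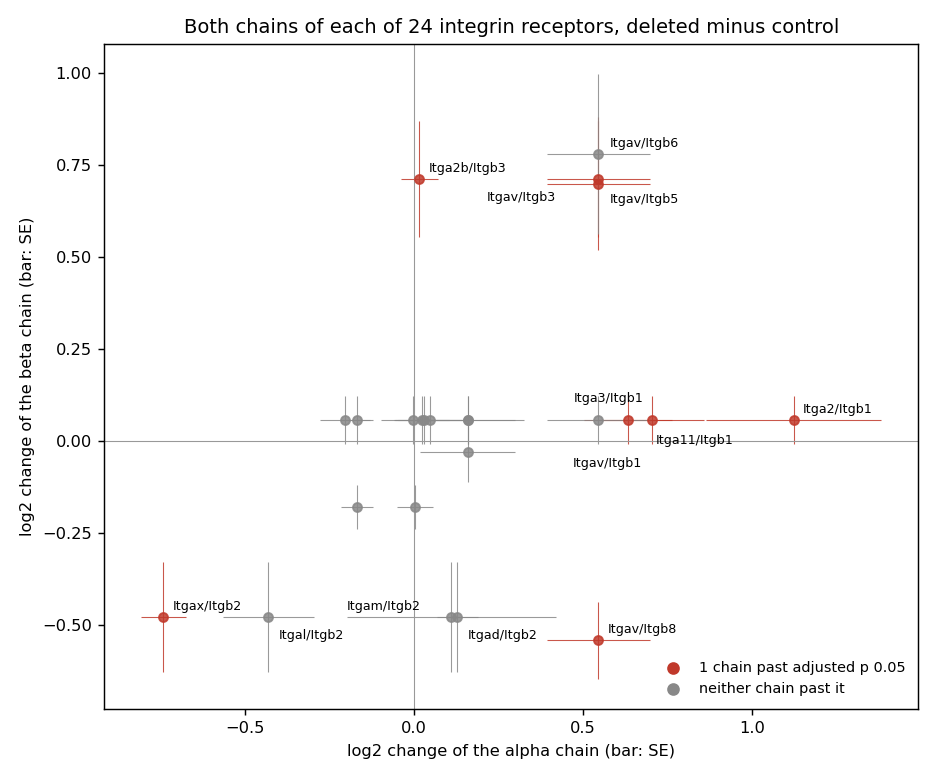
Log2 change (deleted minus control, bars SE) of the alpha chain (horizontal) and of the beta chain (vertical) for each of the 24 integrin receptors, red where 1 chain passed adjusted p 0.05. Receptors of Itgb1 all carry its single change of 0.06 and so lie on 1 line by construction. Itgav with Itgb3, Itgb5 or Itgb6 lies in the upper right.

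Of the 8 leukocyte integrin subunits 1 fell and none rose, where 6.58% of all genes were called lower and 4.50% higher. Itgax, the CD11c chain of dendritic cells, macrophages and some NK cells, read 8.95, 8.96, 8.90 and 9.03 in controls and 8.33, 8.05, 8.22 and 8.27 in deleted uteri. The lowest control was 0.57 above the highest deleted uterus. Itgax fell by 0.74 (SE 0.07, adjusted p = 7.9e-04, limma), the smallest adjusted p of the set, and adjusted p stayed at or under 0.0055 whichever single array was left out. Its shared beta chain Itgb2 read 9.90, 10.42, 9.86 and 10.04 in controls and 9.69, 9.55, 9.82 and 9.25 in deleted uteri, a change of -0.48 that did not pass (SE 0.15, adjusted p = 0.072). Itgal, the LFA-1 chain of lymphocytes, had a change of -0.43 (SE 0.13, adjusted p = 0.070), with control replicate 2 at 9.87 and the other controls from 9.36 to 9.39.

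Itgam, the CD11b chain of neutrophils and macrophages, varied most among the leukocyte chains. It read 9.27, 10.15, 9.21 and 9.61 in controls and 9.65, 9.40, 10.52 and 9.11 in deleted uteri, so the groups overlapped (change 0.11, interval -0.59 to 0.81). The change of Itgam exceeded that of Itgb2 by 0.59 (SE 0.22, exact p = 0.029, permutation test). The change of Itgax lay below that of Itgb2 by 0.27 (alpha minus beta -0.27, SE 0.18, exact p = 0.20). Itgb7 and Itga4, the chains of the gut-homing receptor of lymphocytes, had changes of -0.18 and -0.17 (adjusted p = 0.087 and 0.054). Itgae and Itgb2l had changes of 0.00 and 0.15. The probe sets of Itgad disagreed in sign, with 0.13 for the brighter and -0.13 for the dimmer, and neither passed.

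Markers of leukocyte classes were counted beside these chains, where 4.50% of all genes were called higher and 6.58% lower. Of 14 NK and T cell markers 11 fell and none rose, with the NK receptor genes Klrd1 and Klrb1c at -1.04 (SE 0.07) and -1.17 (SE 0.09; adjusted p = 3.5e-04 and 3.8e-04, limma). The T cell genes Cd3e and Cd3g, and Cd2, did not pass, with changes of 0.17, -0.08 and -0.105. The mean of the list ran from 8.68 to 8.81 in controls and from 7.79 to 8.22 in deleted uteri. Of 14 macrophage and dendritic cell markers 1 rose and none fell, the scavenger receptor gene Cd163 (0.25, SE 0.07, adjusted p = 0.049), with overlapping list means from 10.22 to 10.53 and from 10.13 to 10.61. Of 10 neutrophil markers 2 rose, the chemokine receptor gene Cxcr2 by 2.33 (SE 0.43) and Ly6g by 1.21 (SE 0.25, adjusted p = 0.015 and 0.021, limma). Both were dim in controls, with means of 5.765 and 6.95. The 8 that did not pass had changes from -0.01 to 1.04. The mean of the neutrophil list was highest in Foxa2-deleted replicate 3 at 8.68, as was Itgam. Of 8 pan-leukocyte markers 2 fell, Ptprc and Cd48 (-0.49, SE 0.10, and -0.41, SE 0.11; adjusted p = 0.024 and 0.046). The part of these markers in the values of Itgax, Itgal, Itgb2 and Itgam was not tested.

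**Figure D4:**
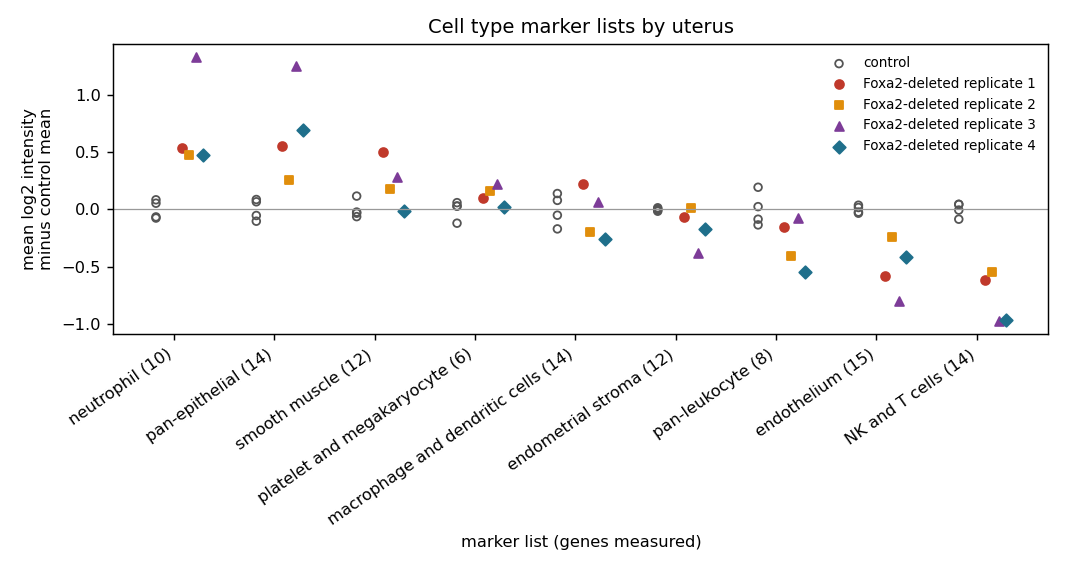
Mean log2 intensity of each cell type marker list minus its control mean (vertical axis), with controls as open circles and each Foxa2-deleted replicate under its own symbol. Neutrophil and pan-epithelial lists lie above the controls in all deleted uteri and endothelial and NK and T cell lists below, while macrophage and dendritic cell lists overlap.

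Of the laminin chains 1 fell, where 6.58% of all genes were called lower. Lamc3, the gamma 3 chain, read 9.52, 9.46, 9.55 and 9.47 in controls and 8.81, 9.10, 8.67 and 8.88 in deleted uteri, all below. Lamc3 fell by 0.64 (SE 0.08, adjusted p = 0.0049, limma), and adjusted p stayed at or under 0.024 with any single array left out. Lama2, the alpha chain of muscle basement membrane, read 11.20, 11.23, 11.24 and 11.29 in controls and 10.85, 11.04, 10.27 and 10.89 in deleted uteri (change -0.48, SE 0.14, adjusted p = 0.066). It was called without Foxa2-deleted replicate 2 or 3. Lama4, the alpha chain of vessels, had a change of -0.23 (SE 0.12, adjusted p = 0.203) and Nid1 one of -0.28 (SE 0.12, adjusted p = 0.155). Of 15 endothelial markers 9 fell and none rose, among them Pecam1 at -0.66 (SE 0.10) and Tie1 at -0.70 (SE 0.11; adjusted p = 0.0077 and 0.011), with list means from 10.44 to 10.51 in controls and from 9.67 to 10.23 in deleted uteri. Their part in the values of Lama4 and Nid1 was not tested. Endometrial stroma markers had 1 of 12 lower, Nr2f2 (-0.42, SE 0.10, adjusted p = 0.034), and smooth muscle markers 1 of 12 higher, Actg2 (0.51, SE 0.13, adjusted p = 0.045).

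The laminin chains not yet named did not pass. Lama5, the main alpha chain of mature epithelial and vessel basement membranes, lay between 9.87 and 10.05 in controls and read 10.43, 10.09, 11.04 and 10.55 in deleted uteri (change 0.57, SE 0.17, adjusted p = 0.062, limma), and was called without Foxa2-deleted replicate 2. Lama1 had a change of 0.38 (SE 0.13, adjusted p = 0.091). The widely used chains Lamb1 and Lamc1 had changes of -0.04 (interval -0.30 to 0.22) and -0.09 (interval -0.21 to 0.03), and Lamb2 one of -0.14 (adjusted p = 0.086). Of the 10 laminin chains measured 2 rose, 1 fell and 7 did not pass, with a median of -0.07. Over all genes 4.50% were called higher and 6.58% lower. Nid2 had a change of 0.12 (interval -0.08 to 0.31).

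**Figure D5:**
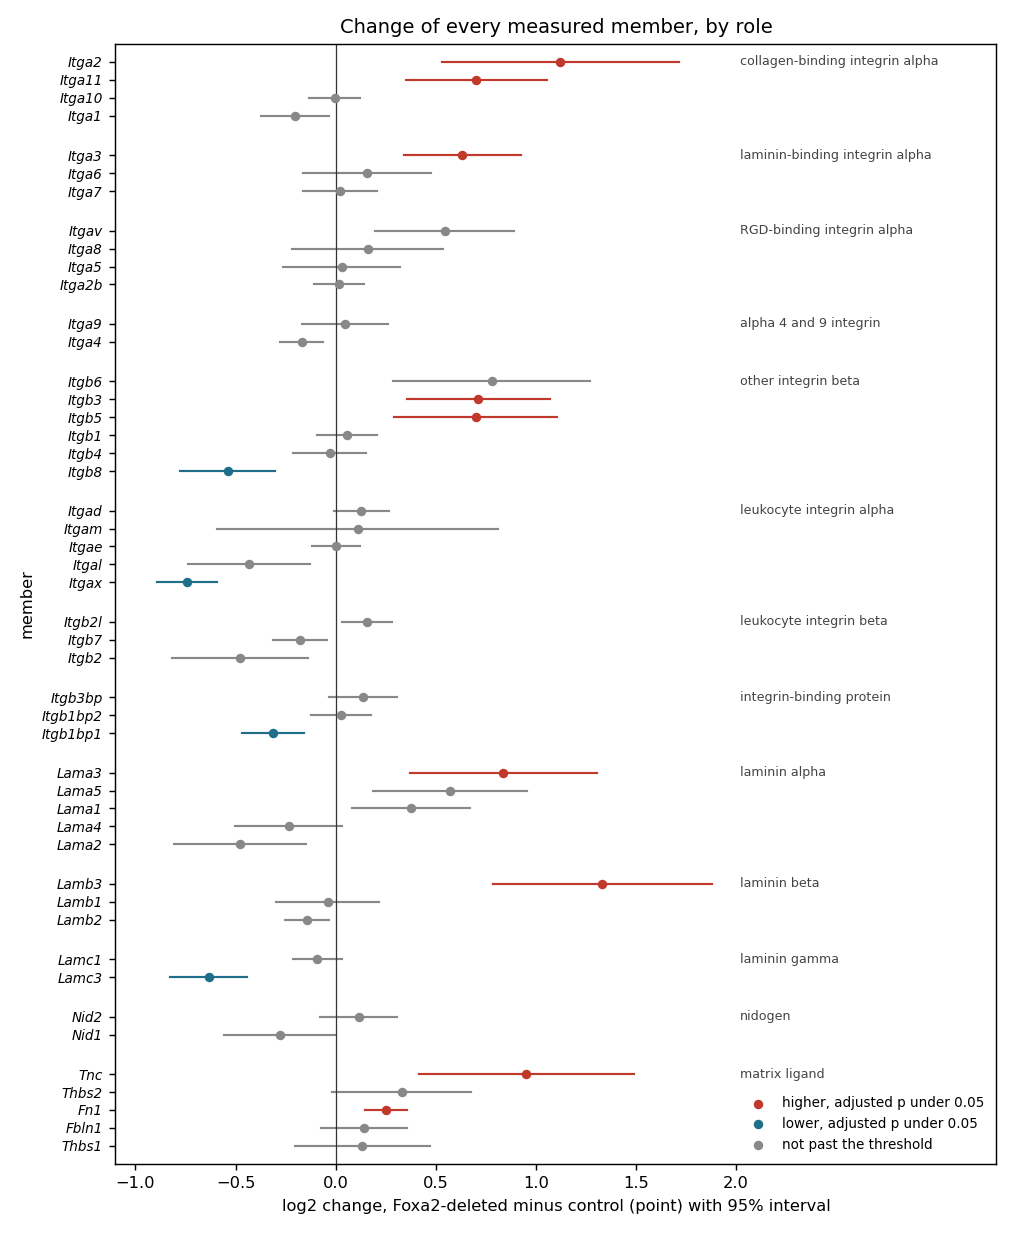
Log2 change (deleted minus control) of each of the 47 members with its 95% interval, ordered by role, red where higher and blue where lower at adjusted p under 0.05. The points of Lamb3 and Itga2 lie farthest to the right, those of Itgax and Lamc3 farthest to the left, and the intervals of Itgb1, Itgb4, Lamb1 and Lamc1 span 0.

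Of the 5 matrix ligands other than nidogens 2 rose, where 4.50% of all genes were called higher. Tnc, a matrix protein of remodelling stroma, read 9.16, 8.61, 9.0 and 8.81 in controls and 9.32, 9.52, 10.44 and 10.11 in deleted uteri. Replicate 1 was just above the highest control, while replicates 3 and 4 were far above it. Tnc rose by 0.95 (SE 0.24, adjusted p = 0.038, limma), and the call ended without any 1 control, without deleted uterus 4, and without deleted uteri 2 and 3 together (adjusted p up to 0.108). Adjusting over all 35556 probe sets also ended it (adjusted p = 0.0511). Fn1, which encodes fibronectin, was the most even of the rises. It read 12.69, 12.66, 12.61 and 12.69 in controls and 12.91, 13.00, 12.87 and 12.88 in deleted uteri. The rise of Fn1 was 1.19-fold (log2 change 0.25, SE 0.05, adjusted p = 0.016, limma), and leaving out control 2 or 3 ended the call (adjusted p up to 0.0539). Thbs2, Fbln1 and Thbs1 had changes of 0.33, 0.14 and 0.13 that did not pass (adjusted p from 0.177 to 0.564).

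The integrin-binding protein genes that the name pattern caught are cytoplasmic or nuclear. Itgb1bp1, whose product ICAP1 binds the beta 1 tail and restrains integrin activation, read 9.40, 9.47, 9.43 and 9.46 in controls and 9.22, 9.16, 9.20 and 8.93 in deleted uteri. Itgb1bp1 fell by 0.31 (SE 0.07, adjusted p = 0.025, limma), and leaving out any 1 control ended the call (adjusted p up to 0.0773). Itgb1bp2 and Itgb3bp had changes of 0.03 and 0.14 and did not pass.

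Other genes of cell adhesion were counted by list, where 4.50% of all genes were called higher and 6.58% lower. Of 30 genes of focal adhesions and integrin activation 4 rose and 3 fell, with a median of 0.01. The count of 4 was 0 without any 1 control, without deleted uterus 1 or 3, and with p adjusted over all probe sets, and that of 3 was 1 without control 2, 3 or 4 (limma). The parvin gene Parvb fell by 0.65 (SE 0.07, adjusted p = 0.0017), the guanine exchange factor gene Dock1 by 0.44 (SE 0.08, adjusted p = 0.015) and the tensin gene Tns3 by 0.49 (SE 0.10, adjusted p = 0.019, limma). Of 25 other basement membrane genes 5 rose and 3 fell, with a median of 0.11, and without 1 array from 1 to 8 were higher and from 0 to 5 lower. Smoc2, a matricellular calcium-binding protein, rose by 0.57 (SE 0.08, adjusted p = 0.0069), the dystroglycan gene Dag1, a laminin receptor, rose by 0.25 (SE 0.05, adjusted p = 0.019), while Col4a6, a collagen IV gene, fell by 0.62 (SE 0.12, adjusted p = 0.016). Leaving out control 4 ended the call of Col4a6 (adjusted p = 0.0542), and leaving out control 2, 3 or 4 ended those of Dock1, Tns3 and Dag1 (up to 0.0679).

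Of 24 other matrix ligands 2 rose and 3 fell, with a median of 0.02, and without 1 array from 0 to 3 were higher and from 0 to 5 lower. The fibulin gene Fbln2 rose by 1.08 (SE 0.24, adjusted p = 0.027), while Fbln7 fell by 0.54 (SE 0.11, adjusted p = 0.019) and the von Willebrand factor gene Vwf, made in endothelium, by 0.66 (SE 0.13, adjusted p = 0.020, limma). All of these calls ended without control 1, 3 or 4, and that of Fbln2 also without control 2 or deleted uterus 1 (adjusted p up to 0.0826). Of 11 cell adhesion genes, mostly counter-receptors of leukocyte integrins, 1 rose and 4 fell, where 4.50% and 6.58% of all genes did. Their median was 0.05, and without 1 array from 0 to 2 were higher and from 1 to 5 lower. The gene that rose was Alcam (0.81, SE 0.20, adjusted p = 0.039, limma), whose product is not among those counter-receptors. Icam1 and Icam2, ligands of the Itgal and Itgb2 receptor, fell by 0.39 (SE 0.07, adjusted p = 0.012) and 0.22 (SE 0.05, adjusted p = 0.027), and Vcam1, a ligand of Itga4, by 0.48 (SE 0.11, adjusted p = 0.032, limma). The call of Icam1 held with any single array left out, that of Icam2 ended without any 1 control, without deleted uterus 1 and under 2 other scalings (up to 0.0817), and that of Vcam1 without control 1, 2 or 4 and without deleted uterus 1 (up to 0.0946).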

How the data were processed

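Total RNA (150 ng per uterus) was labelled with biotin by a whole-transcript protocol, per the labels' protocols. The deposited values are log2 intensities per probe set made by the authors with RMA, with limma named beside it, per the submitters' processing notes. The sources used here name no version, build or annotation. RMA pulls dim probe sets towards a floor, which understates their changes. Of 35556 probe sets 21789 had 1 gene symbol in GEO's platform annotation, 1621 several and 12146 none listed. The brightest one-symbol probe set stood for each gene.

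Genotypes were compared over all genes with lmFit and eBayes in limma 3.58.1 (R 4.3.3), with no covariate. The fit was tested on simulated independent values with the same SD in both genotypes. Deleted uteri spread more than controls, so that test does not cover the unequal spread of these data. Errors are SE of the fit, intervals cover 95%, and adjusted p is by Benjamini-Hochberg over all genes tested. For differences between receptor chains the SE came instead from the variance of the within-array differences in each genotype. The labels call the replicates biological. Members, lists and named genes were chosen with earlier results of these data known. All members past the threshold are named, and in other lists up to 3 genes, or up to 2 cell type markers, with the smallest adjusted p. Alcam, Cd3e, Cd3g, Cd2, Cldn4 and Cldn7 were named after their values were seen. Apart from Itgav and Itgb6, members that did not pass were singled out after their values were seen. The test between receptor chains and the AP-1 search were added after the data were seen. Alternatives covered probe set choice, scaling, filters, variance models, array weights, adjustment over all probe sets, the replicate block and left-out arrays.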

Additional observations from a re-analysis of the deposited data

Results flagged for a closer look

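Of 98 groups of 4 uteri examined for the 47 members, Foxa2 and Pgr, 5 (5.10%) held a uterus whose distance to the next, as a share of the range of its group, was above Dixon's 95% critical value, where chance gives about 1 in 20. Foxa2-deleted replicate 3 accounted for 3 of them. It read 11.51 for Itga2, with the other deleted uteri from 10.19 to 10.31, 10.11 for Lamb3, with the others from 8.88 to 9.04, and 10.76 for Lamb2, with the others from 10.86 to 10.88. Control replicate 2 read 9.87 for Itgal, with the other controls from 9.36 to 9.39. Control replicate 3 read 11.41 for Itgb1, with the others from 11.34 to 11.35.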

How the results depend on the processing

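Without 1 array the members called higher ranged from 0 to 12, against 9, and those called lower from 2 to 6, against 4, while from 2.79% to 15.3% of all genes were called, against 11.1%. The replicate numbers do not pair the arrays, since deviations of same-numbered arrays correlated between -0.05 and 0.06. With the replicate block 4 members were higher and 3 lower, without the calls of Itga2, Itga11, Itgb3, Itgb5, Tnc and Itgb1bp1, and 1062 genes were called in all, against 2209. Adjusted over all 35556 probe sets (added after the data were seen), 7 members were higher and 4 lower, where 8.01% of all genes were called, and the calls of Itgb5, Tnc, Pgr, Cd163, Cd48 and Actg2 ended (adjusted p up to 0.0644). With a change of at least 1.5-fold required 2 members were lower. Under the 3 other scalings, 2 other probe set rules, 2 filters on dim genes, trend and robust eBayes, array weights, and without both Foxa2-deleted replicates 2 and 3 (added after the data were seen), from 8 to 13 members were higher and from 4 to 5 lower. From 9.57% to 15.7% of the genes tested were called there, against 11.1%. The count of 8 came from the fit without the lower 50% of genes. That fit tested 34 members and 9962 genes, of which 15.5% were called. Foxa2 was called in all settings that held it. No member called in any setting changed sign. The cause of these shifts was not tested. The planned search for protein motifs was not run, nor was the exact test of receptor chains with 1 array left out. The log2 values carry no background level, so the depth of dim members such as Lama1 is unknown.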
